A study of Mus musculus with 29 samples.

Results

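Ucp1, Otop1, Cidea, Elovl3, Cpt1b, Cox8b, Cox7a1, Adrb3, Ppargc1a and Dio2 are 10 genes of brown fat heat production, chosen by symbol from the 51456 gene symbols measured in aortic arch of mice. They were followed in all 29 libraries, and all 10 passed the filter on low values that left 13510 genes for testing. Their levels were compared between groups and against each other library by library. Covariation with Ucp1 was taken as a reading of how much brown fat remained with each arch. Dio2 followed Ucp1 least and was not read so.

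Brown adipocytes burn fatty acids in dense mitochondria and release the energy as heat through uncoupling protein 1. Noradrenaline acting on the beta-3 adrenergic receptor raises cyclic AMP, which releases fatty acids from lipid droplets and switches on the thermogenic genes. The fat that surrounds the mouse thoracic aorta and its arch is largely of this brown type, and Ucp1 is a gene of brown and beige adipocytes.

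The study asked about the cardiovascular safety of an antibody to sclerostin (Scl-Ab), an approach used against osteoporosis. There were 10 libraries from ApoE knockout (KO) mice given angiotensin II (AngII) and Scl-Ab, 9 from ApoE KO mice given AngII and vehicle, and 10 from wild-type (WT) mice given vehicle in place of both. All were male C57BL/6 mice on chow, labelled as 14 weeks old. AngII came from an implanted pump at 15.27 mg/mL and 0.11 µL per hour, WT pumps held vehicle, and Scl-Ab was injected under the skin weekly at 10 mg/kg for 4 weeks. The ApoE KO mice with AngII are called the model here. Genotype and AngII differed together between the model and WT, so their parts cannot be told apart. The treatment protocol lists 9 WT mice for the 10 WT libraries, so n counts libraries. Adventitial fat was scraped off with a swab before freezing, and whatever fat remained was sequenced with the arch. Fewer brown adipocytes and less RNA of these genes per adipocyte cannot be told apart in such bulk tissue. Values are in FPKQ, a name that is not spelled out. They were read as fragment counts per gene length scaled to a common upper quantile. On that reading levels of different genes can be set side by side. Gene coordinates below are from the GENCODE annotation of GRCm38.

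As a check of the labels, Apoe averaged 8.39 FPKQ in the Scl-Ab-treated model and 6.71 in the vehicle-treated model, against 264 in WT. The sum of all values per library was 496126 to 678907. In the vehicle-treated model against WT, 8 of 8 macrophage markers were called higher and 11 of 12 contractile smooth muscle markers lower (limma, Benjamini-Hochberg adjusted p under 0.05). Of all 13510 tested genes, 53.7% were called there in either direction. Markers of heart muscle, which adjoins the arch, averaged 3.46 on the log2(value + 1) scale in the Scl-Ab-treated model, 2.10 in the vehicle-treated model and 2.13 in WT.

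RefSeq promoters of the GRCm38.p6 build, 250 bases before to 50 after the annotated start, were matched for 6 of the 10 genes, and 3 are shown. Ucp1 and Cox8b varied almost in parallel across libraries, and Dio2 was the member whose levels followed them least. Ucp1 is shown from the plus strand at chr8:83290098-83290397. Cox8b is shown from the minus strand at chr7:140900397-140900696. Dio2 is likewise shown from the minus strand, at chr12:90738989-90739288. Capitals mark a cyclic AMP response element (TGACGTCA) or a TATA motif (TATAAA).
Ucp1: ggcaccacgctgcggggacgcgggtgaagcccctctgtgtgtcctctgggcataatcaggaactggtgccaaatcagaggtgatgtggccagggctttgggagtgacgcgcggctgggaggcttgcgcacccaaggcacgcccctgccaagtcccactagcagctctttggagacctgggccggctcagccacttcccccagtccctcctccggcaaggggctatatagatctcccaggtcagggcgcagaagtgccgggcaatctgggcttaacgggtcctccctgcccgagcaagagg
Cox8b: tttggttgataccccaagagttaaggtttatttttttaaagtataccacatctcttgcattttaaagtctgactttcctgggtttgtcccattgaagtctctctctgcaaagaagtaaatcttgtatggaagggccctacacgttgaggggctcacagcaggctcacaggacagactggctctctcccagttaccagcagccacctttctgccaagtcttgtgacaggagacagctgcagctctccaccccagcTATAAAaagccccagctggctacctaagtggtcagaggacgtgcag
Dio2: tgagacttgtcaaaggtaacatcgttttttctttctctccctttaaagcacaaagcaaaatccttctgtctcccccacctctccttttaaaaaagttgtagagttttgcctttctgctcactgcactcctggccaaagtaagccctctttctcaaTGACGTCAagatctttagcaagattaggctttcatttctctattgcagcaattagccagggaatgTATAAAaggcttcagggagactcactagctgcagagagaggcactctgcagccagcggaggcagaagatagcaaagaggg
The search covered both strands for these motifs, for the estrogen-related receptor element TCAAGGTCA and for DR1, a pair of AGGTCA half-sites with 1 base between them. Dio2 alone of the 6 held the cyclic AMP response element, at positions -95 to -88 from its RefSeq start, and its TATA motif lay at -30 to -25. The Dio2 window lies wholly outside its GENCODE span (chr12:90724552-90738438), so RefSeq and GENCODE place its start differently. The Otop1 window (chr5:38277154-38277453) lies inside the GENCODE span of that gene, after its start at 38275972. Cox8b held TATAAA at positions 5 to 10 after the RefSeq start. None of these 4 motifs was in the windows of Ucp1, Cox7a1, Ppargc1a or Otop1. Among all 32851 promoters of this length, 1.79% held TGACGTCA, 13.6% TATAAA, 0.423% TCAAGGTCA and 0.0396% the DR1. A match describes letters only and shows no binding.

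Ucp1 (chr8:83290352-83298452, GRCm38) encodes uncoupling protein 1, which lets protons leak across the inner mitochondrial membrane. Its values were 411, 654, 973, 50.5, 325, 271, 126, 187, 166 and 49.7 FPKQ in Scl-Ab-treated model libraries 10 to 19. They were 856, 353, 48.9, 457, 21.4, 109, 39.0, 52.8 and 825 in vehicle-treated model libraries 1 to 9, against 6.60, 38.0, 99.6, 171, 248, 145, 156, 101, 252 and 205 in WT libraries 20 to 29. The groups overlapped across most of their range: the low end of each was under 50, and the libraries above 300 all came from the model. The scatter within a group was wide, with the highest value 19.6 times the lowest under Scl-Ab, 40.1 times under vehicle and 38.2 times in WT. Counted among all genes of a library, Ucp1 ranked between 39th and 1560th in the Scl-Ab-treated model, 46th and 3591st in the vehicle-treated model, and 306th and 7961st in WT.

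Otop1 (chr5:38275972-38304217), a proton channel found in brown fat, had a lower level and varied with Ucp1. It ranged from 1.13 through a median of 5.56 to 20.1 FPKQ in the Scl-Ab-treated model and from 0.762 through 3.57 to 18.7 in the vehicle-treated model, against 0.126 through 3.03 to 6.48 in WT. Library 12 was its highest under Scl-Ab, library 1 under vehicle and library 28 in WT. These were also the libraries with the most Ucp1 in their groups.

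The lipid-handling members spanned a similar range. Cidea (chr18:67343604-67367785), a lipid droplet protein that promotes large droplets, averaged 149 ± 125 FPKQ in the Scl-Ab-treated model (SD, n = 10) and 142 ± 143 in the vehicle-treated model (SD, n = 9), against 92.2 ± 53.9 in WT (SD, n = 10). Elovl3 (chr19:46131897-46135694), which elongates very long fatty acids, averaged 11.2 ± 8.20 FPKQ under Scl-Ab and 9.02 ± 9.66 under vehicle, against 6.06 ± 4.62 in WT. Cpt1b (chr15:89416405-89425863), the muscle-type carnitine palmitoyltransferase that brings fatty acids into mitochondria, averaged 28.6 ± 22.7 FPKQ under Scl-Ab and 26.2 ± 27.6 under vehicle, against 15.6 ± 8.02 in WT. The coefficient of variation of these genes within the model groups was 73.0% to 107%, and the ranges of the 3 groups overlapped.

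Cox8b and Cox7a1 encode the forms of 2 cytochrome c oxidase subunits that heart, skeletal muscle and brown fat use. Cox8b (chr7:140898945-140900446) averaged 259 ± 214 FPKQ in the Scl-Ab-treated model and 244 ± 261 in the vehicle-treated model, against 128 ± 79.6 in WT. Cox7a1 (chr7:30184144-30186078) averaged 112 ± 93.6 FPKQ under Scl-Ab and 104 ± 113 under vehicle, against 58.9 ± 33.1 in WT. Both varied with Ucp1 within groups. The share of Cox8b in the summed level of Cox8b and the general form Cox8a averaged 38.2% ± 13.9 under Scl-Ab and 33.4% ± 16.1 under vehicle, against 25.9% ± 10.8 in WT (SD). Shares of Cox7a1 with Cox7a2 and of Cpt1b with Cpt1a were tested likewise, and none of the 9 differences between groups passed the threshold after Benjamini-Hochberg adjustment. The smallest p was 0.0423 (two-sided permutation test, adjusted p = 0.24) for Cox8b in the Scl-Ab-treated model against WT.

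Of the signalling members, Adrb3 (chr8:27225776-27250616), the beta-3 adrenergic receptor, read 9.36, 32.3, 33.9, 2.66, 16.5, 30.5, 5.95, 16.7, 7.02 and 3.94 FPKQ in Scl-Ab-treated libraries 10 to 19. It read 18.2, 3.67, 5.11, 13.8, 3.18, 4.58, 3.80, 2.78 and 10.9 in vehicle-treated model libraries 1 to 9, against a lowest, median and highest value of 0.540, 8.46 and 14.4 in WT. Values above 20 were seen in 3 libraries, all Scl-Ab-treated, while the lowest values of the 2 model groups were 2.66 and 2.78.

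Ppargc1a (chr5:51454250-51567726), the coactivator PGC-1 alpha that drives mitochondrial biogenesis, had the lowest median of the members in each group. Under Scl-Ab it read 3.17, 2.15, 2.96, 0.734, 1.78, 1.73, 0.690, 0.622, 0.776 and 0.733 FPKQ in libraries 10 to 19. Under vehicle it read 17.5, 4.17, 0.706, 2.00, 0.279, 1.59, 0.416, 0.542 and 17.9 in libraries 1 to 9, against 0.667, 1.20 and 1.89 as the lowest, median and highest WT values. Vehicle-treated libraries 1 and 9 stood far above every other library. Their Ucp1 levels of 856 and 825 were below the 973 of Scl-Ab-treated library 12, in which Ppargc1a was 2.96.

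Dio2 (chr12:90724552-90738438), the deiodinase that makes active thyroid hormone inside the cell, had most of its model libraries above the WT range. It read 18.1, 26.7, 21.04, 27.4, 17.4, 13.4, 14.6, 10.6, 9.90 and 10.4 FPKQ in Scl-Ab-treated libraries 10 to 19. It read 63.8, 23.3, 20.7, 14.1, 48.0, 14.8, 6.04, 14.7 and 24.3 in vehicle-treated model libraries 1 to 9, against 5.78, 5.02, 11.8, 13.7, 10.4, 7.64, 8.20, 8.499, 9.68 and 5.41 in WT libraries 20 to 29. The WT maximum was exceeded by 6 of 10 Scl-Ab-treated and 8 of 9 vehicle-treated libraries. Vehicle-treated library 5 had the second highest Dio2 of its group at 48.0, although its Ucp1 was the lowest there at 21.4.

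**Figure D1:**
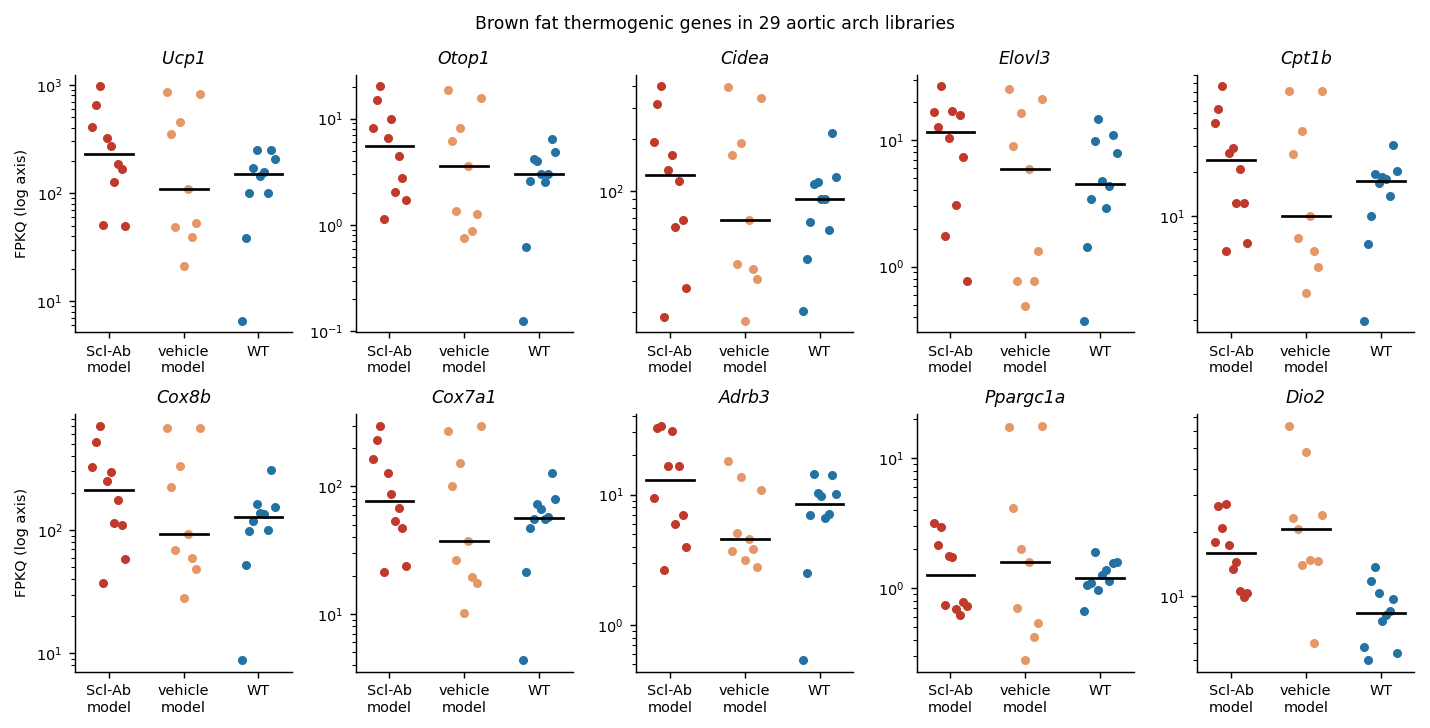
Level of each gene in FPKQ (log axis) in every library of the Scl-Ab-treated model (n = 10), the vehicle-treated model (n = 9) and WT (n = 10); bars mark medians. The groups overlap for every gene, and Dio2 has 8 of 9 vehicle-treated libraries above the highest WT library.

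Ranked by median in WT, the levels ran from Ucp1 (151 FPKQ) through Cox8b (127), Cidea (89.7), Cox7a1 (57.0), Cpt1b (17.4), Adrb3 (8.46), Dio2 (8.35), Elovl3 (4.52) and Otop1 (3.03) to Ppargc1a (1.20). Neighbours in that order, such as Ucp1 and Cox8b or Adrb3 and Dio2, lay within each other's ranges. In the vehicle-treated model the order was the same for the first 4, from Ucp1 at 109 to Cox7a1 at 37.3, but Dio2, with a median of 20.7, stood above Cpt1b at 10.1.

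The members other than Dio2 varied together from library to library. Correlations with Ucp1 on the log2(value + 1) scale were computed within each group. For the 8 other members Pearson's r was 0.84 to 0.989 in the Scl-Ab-treated model, 0.816 to 0.995 in the vehicle-treated model and 0.731 to 0.979 in WT. Spearman's rho for them was 0.806 to 0.976, 0.717 to 1.0 and 0.588 to 0.964 in the same order of groups. All 24 of these Pearson correlations passed an adjusted p of 0.05 (permutation tests, exact for the vehicle-treated model and with 100000 resamples for the others, Benjamini-Hochberg over 117 relations), with adjusted p up to 0.0249. By Spearman's rho, Adrb3 in the vehicle-treated model (adjusted exact permutation p = 0.0608) and Ppargc1a in WT (adjusted permutation p = 0.12) did not pass. The weakest was Ppargc1a in WT, where r fell to 0.307 without libraries 20 and 21.

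Dio2 did not pass with Ucp1 in any group. Its r was 0.341 in the Scl-Ab-treated model (adjusted permutation p = 0.401), 0.300 in the vehicle-treated model (adjusted exact permutation p = 0.492) and 0.514 in WT (adjusted permutation p = 0.178). Its rho was 0.442, 0.317 and 0.382 in those groups. Leaving out the libraries farthest in Ucp1 moved r to 0.821 under Scl-Ab (without 13 and 19), -0.144 under vehicle (without 1 and 9) and -0.12 in WT (without 20 and 21), so these values rest on those libraries.

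**Figure D2:**
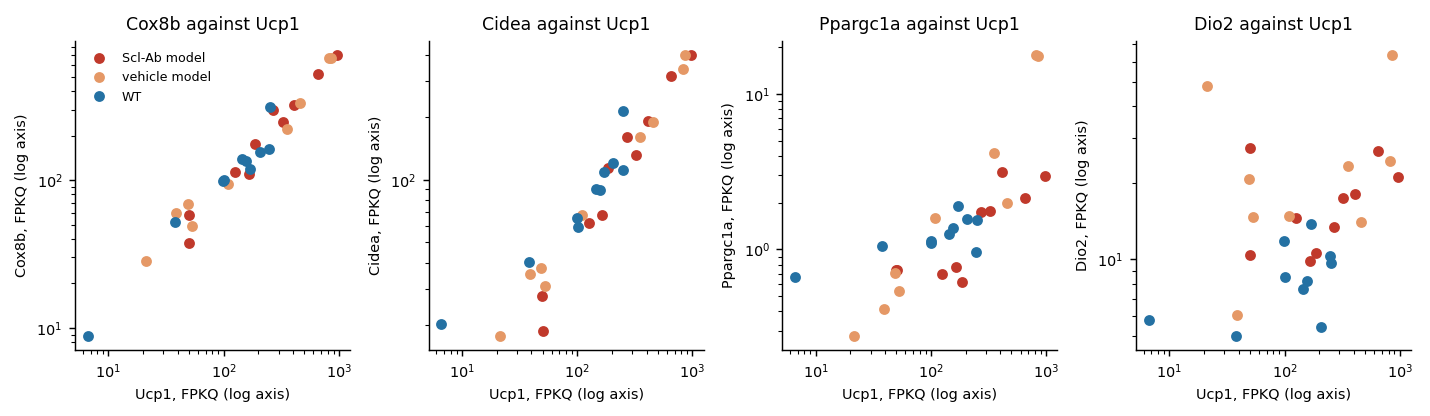
Cox8b, Cidea, Ppargc1a and Dio2 against Ucp1, all in FPKQ on log axes, with 1 point per library colored by group. Cox8b and Cidea follow Ucp1 closely in all groups, vehicle-treated libraries 1 and 9 lie apart for Ppargc1a at 17.5 and 17.9, and Dio2 is scattered.

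With group means removed and all 29 libraries pooled, the 28 pairs among the 8 members other than Dio2 and Ppargc1a had r of 0.836 to 0.99, with a median of 0.96. Ppargc1a with those 8 gave 0.54 to 0.824, and Dio2 with the other 9 gave 0.308 to 0.466. These pooled values are descriptions over libraries that share 1 set of group means.

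**Figure D3:**
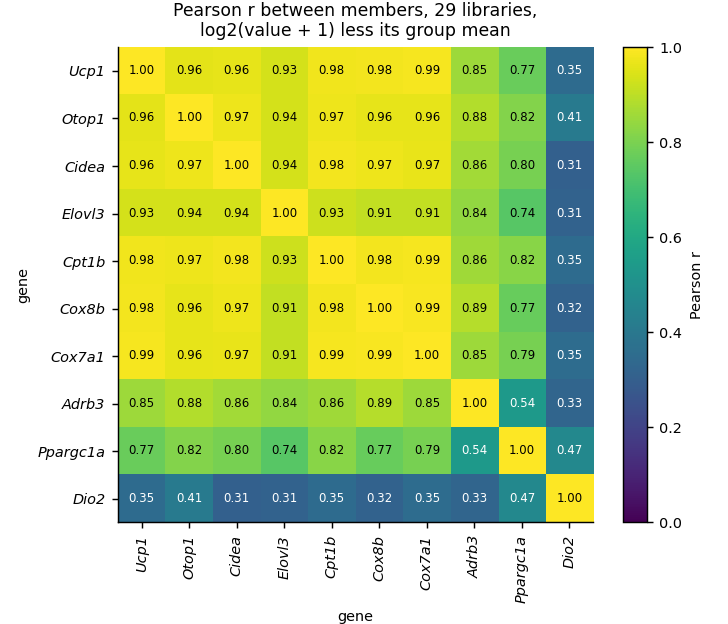
Pearson r between every pair of the 10 genes over 29 libraries, on log2(value + 1) less the group mean. The Dio2 row stays at or below 0.47, while pairs without Dio2 and Ppargc1a reach 0.99.

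The genes outside the list whose pattern was most like Ucp1 over the 29 libraries, on the same scale, were Clstn3 (r = 0.975), Slc36a2 (0.975), Gpd1 (0.974), Chchd10 (0.973), Pck1 (0.97) and Plin5 (0.968). Slc36a2 is a surface transporter used as a brown fat marker, Gpd1 and Pck1 supply glycerol phosphate, and Plin5 coats lipid droplets. For Dio2 the nearest were Cilp (0.836), Ubqln1 (0.789) and Ildr2 (0.785), and Cilp encodes a matrix protein first known from cartilage. For Ppargc1a they were Osbpl11 (0.943), Ptp4a1 (0.939) and Lpin1 (0.932), and for Adrb3 Pnpla3 (0.93), Tusc5 (0.916) and Ces1d (0.913).

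The members also followed general adipocyte markers. With the mean log2 level of a list of 20 such genes (among them Adipoq and Plin1), the 9 members other than Dio2 had r of 0.864 to 0.981 in the Scl-Ab-treated model, 0.856 to 0.988 in the vehicle-treated model and 0.774 to 0.995 in WT. All 27 passed in the permutation tests after adjustment, with adjusted p up to 0.0149, and rho was 0.697 to 0.988, 0.85 to 1.0 and 0.636 to 0.976, with Ppargc1a under Scl-Ab and in WT not passing by rho (adjusted permutation p = 0.054 and 0.0834). Dio2 reached 0.261, 0.381 and 0.462 and did not pass. Without the 2 libraries farthest in the adipocyte mean, the lowest r of the 9 was 0.797 under Scl-Ab, 0.646 under vehicle and 0.48 in WT.

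In the vehicle-treated model, heart muscle markers varied with the members and smooth muscle markers ran against them. With the cardiac muscle mean, the 9 members other than Dio2 had r of -0.024 to 0.556 in the Scl-Ab-treated model, where none passed, and 0.914 to 0.951 in the vehicle-treated model, where all passed. In WT r was 0.104 to 0.33 and none passed. Without the libraries farthest from the median cardiac mean, r was 0.526 to 0.709 under Scl-Ab (without 15 and 17), 0.641 to 0.92 under vehicle (without 1 and 9) and -0.062 to 0.239 in WT (without 27 and 28). With the contractile smooth muscle mean r was -0.754 to -0.546 under Scl-Ab, where only Adrb3 and Otop1 passed, -0.898 to -0.787 under vehicle, where all 9 passed, and -0.599 to -0.367 in WT, where none passed. Leaving out the libraries farthest in that mean gave -0.575 to -0.342 under Scl-Ab, -0.948 to -0.586 under vehicle and -0.552 to -0.113 in WT. Spearman's rho with the cardiac mean was 0.103 to 0.733, 0.767 to 0.933 and 0.03 to 0.309, and with the smooth muscle mean -0.685 to -0.273, -0.983 to -0.717 and -0.758 to -0.261, in that order of groups. By rho, Ppargc1a passed with the cardiac mean under Scl-Ab (rho = 0.733, adjusted permutation p = 0.0371). With the smooth muscle mean by rho, Adrb3 and Otop1 under Scl-Ab (adjusted permutation p = 0.0616 and 0.0929) and Adrb3 under vehicle (adjusted exact permutation p = 0.0608) did not pass, while Ppargc1a and Cpt1b in WT did (adjusted permutation p = 0.0472 and 0.0273). The difference in r between groups was not tested. Cox8b, Cox7a1 and Cpt1b are also expressed in heart muscle. The part of heart tissue in their levels, or in those of the other members such as Ppargc1a, was not tested.

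**Figure D4:**
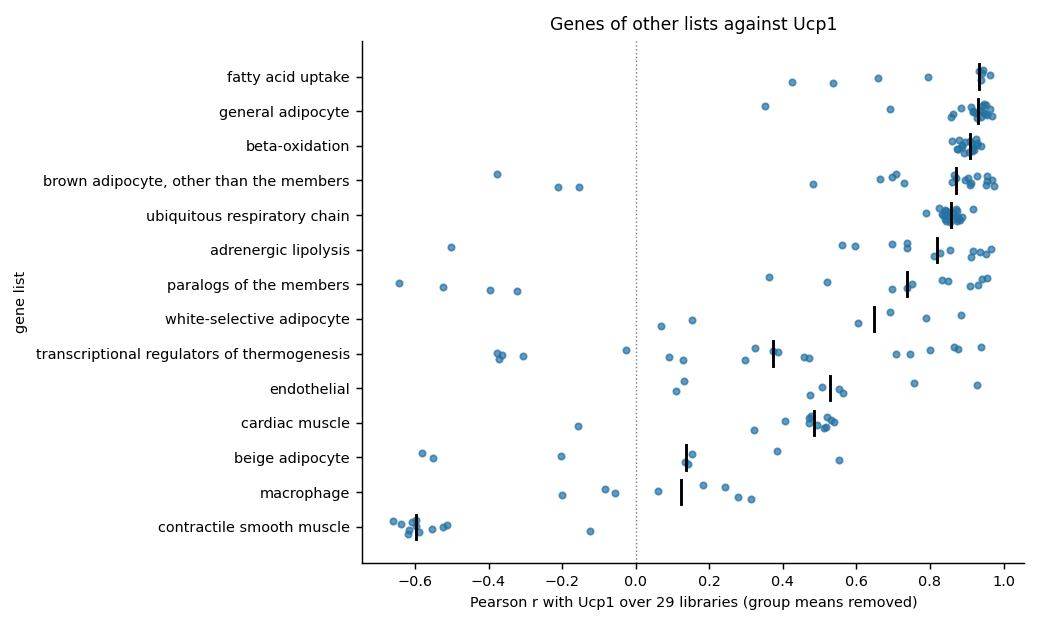
Pearson r of each gene with Ucp1 over 29 libraries with group means removed, by gene list; black bars are list medians. The medians are 0.932 for general adipocyte genes, 0.908 for beta-oxidation and 0.856 for the ubiquitous respiratory chain, against 0.122 for macrophage and -0.597 for contractile smooth muscle genes.

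On that pooled measure, 18 beta-oxidation genes had r with Ucp1 of 0.861 to 0.938 and 22 genes of the ubiquitous respiratory chain 0.789 to 0.916, while 12315 other tested genes, counted without models named Gm or Rik, had a median of -0.149. Among 21 other brown fat genes the median was 0.871 and the lowest was Prdm16, a brown fat transcription factor, at -0.377. Prdm16 itself was 9.20 ± 1.72 FPKQ in the Scl-Ab-treated model and 12.1 ± 3.18 in the vehicle-treated model, against 14.3 ± 1.87 in WT (SD). Most of the 21 went the other way, with 17 log2 differences above 0 in the vehicle-treated model against WT and 16 under Scl-Ab. Called there by limma were 1 higher and 2 lower, against 53.7% of all genes, and 3 higher and 2 lower, against 50.4%. The part of other cells of the arch in the level of Prdm16 was not tested. Beige adipocyte genes had a median r of 0.138 and white-selective genes of 0.647. The 15 tested paralogs had r of -0.644 to 0.955, with a median of 0.737. Ucp3 (0.955), Elovl6 (0.931) and Ppargc1b (0.908) followed Ucp1, as did the general forms Cox7a2 (0.849) and Cox8a (0.834). Cpt1a (-0.396) and Elovl1 (-0.644) were among those that ran against Ucp1.

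In the vehicle-treated model against WT, Dio2 was higher and the other 9 members did not pass. Dio2 was 2.36-fold higher (log2 difference 1.24 ± 0.289 SE, limma adjusted p = 0.000705). Thus 1 of 10 members was called, against 53.7% of all 13510 genes. Ucp1 differed 1.40-fold with a 95% interval of 0.498 to 3.93, Cox8b 1.40-fold (0.570 to 3.44), Ppargc1a 1.54-fold (0.874 to 2.71) and Cidea 1.08-fold (0.473 to 2.48). Intervals this wide leave room for changes of more than 2-fold in either direction for Ucp1 and Cidea. The median log2 difference of the 10 was 0.339, against -0.039 over all genes tested. Without vehicle-treated libraries 1 and 9, chosen for omission after their values were seen, Ucp1 was -0.24 and Cox8b -0.16 on the log2 scale, and Dio2 was still called (0.99, limma adjusted p = 0.00419).

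Scl-Ab against vehicle within the model changed none of the 10 members at an adjusted p under 0.05 (limma), against 7.44% of all genes, and none had an unadjusted p under 0.05. The lowest was Adrb3, 1.83-fold with a 95% interval of 0.960 to 3.48 (limma adjusted p = 0.234). Ucp1 differed 1.49-fold (0.531 to 4.19), Elovl3 1.56-fold (0.665 to 3.68), Ppargc1a 0.692-fold (0.392 to 1.22) and Dio2 0.777-fold (0.516 to 1.17). The median log2 difference was 0.437, against -0.009 over all genes. Within the model the libraries with title codes ending in 12 to 15 had more Ucp1, at 522 ± 390 FPKQ under Scl-Ab (SD, n = 4) and 429 ± 333 under vehicle (SD, n = 4), than those ending in 27 to 33, at 187 ± 99.1 (SD, n = 6) and 209 ± 345 (SD, n = 5). What these codes stand for is not given in the labels. Within codes 12 to 15, within codes 27 to 33 and with the range as a covariate, 0 of 10 members were called, against 0, 93 and 348 of all 13510 genes. Without vehicle-treated libraries 1 and 9 none was called either (limma), and the log2 differences were 1.30 for Ucp1, 1.23 for Elovl3 and 0.17 for Ppargc1a. Beside this comparison, 10 of 12 cardiac muscle markers differed at an unadjusted p under 0.05, all higher under Scl-Ab, and 1 of them, Nppa, was called (5.72-fold, limma adjusted p = 0.0387). The summed level of the 16 listed cardiac markers was 65.9 to 1308 FPKQ under Scl-Ab and 40.8 to 599 under vehicle, and none was at 0 in a whole group. With the mean of the cardiac list as a covariate, 9 of the 10 log2 differences were below 0, among them Ucp1 at -0.46, and Ppargc1a was called (-1.22, limma adjusted p = 0.0271).

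In the Scl-Ab-treated model against WT, Dio2 was 1.84-fold higher (log2 difference 0.88 ± 0.281 SE, limma adjusted p = 0.0107) and was the only one of the 10 members called, against 50.4% of all genes. Ucp1 differed 2.09-fold with a 95% interval of 0.763 to 5.70, Cox8b 1.86-fold (0.775 to 4.45) and Otop1 1.72-fold (0.873 to 3.37). All 10 log2 differences were above 0, with a median of 0.746 against -0.057 over all genes, and the 9 other than Dio2 did not pass. With the 5 WT libraries 20 to 24 alone Dio2 was 0.80 on the log2 scale and did not pass (limma adjusted p = 0.0845). With the cardiac muscle mean as a covariate it was 0.60 (adjusted p = 0.117). This comparison and the first share their WT libraries, and the first and second share the vehicle-treated model.

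The members were also set against the adipocyte content of each library. The general adipocyte mean was 6.11 ± 1.02 on the log2 scale in the Scl-Ab-treated model and 5.83 ± 1.18 in the vehicle-treated model, against 5.18 ± 0.896 in WT (SD). Of its 20 genes, 3 were themselves called higher in the vehicle-treated model against WT (limma, against 53.7% of all genes), and 17 log2 differences were above 0. In the Scl-Ab-treated model against WT 7 were called higher and 1 lower, against 50.4% of all genes. What else than adipocytes moved this mean was not tested. As a percentage of Adipoq, the adiponectin gene, Ucp1 averaged 157 ± 57.5 under Scl-Ab and 150 ± 79.6 under vehicle, against 229 ± 56.0 in WT (SD). For Cox8b that percentage was 129 ± 36.3 under Scl-Ab and 131 ± 43.9 under vehicle, against 215 ± 30.4 in WT, and for Cpt1b it was 14.6 ± 3.65 and 13.9 ± 5.05, against 28.98 ± 8.96 in WT. For Cpt1b the percentages ran from 9.09 to 19.5 under Scl-Ab and from 8.88 to 22.1 under vehicle, against 21.9 to 51.15 in WT. For Cox8b they ran from 72.7 to 181 and from 82.3 to 209, against 171 to 267 in WT, so its groups overlapped. How many of all genes would separate the groups as a percentage of Adipoq was not counted. Adipoq was itself 2.34-fold in the vehicle-treated model against WT (limma adjusted p = 0.0689) and 3.14-fold in the Scl-Ab-treated model (adjusted p = 0.0142).

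With the general adipocyte mean as a covariate in limma, 7 members were lower and Dio2 higher in the vehicle-treated model against WT, 8 of 10 against 55.1% of all genes. Cpt1b was -0.60 ± 0.127 SE on the log2 scale (adjusted p = 0.000267), Cidea -0.71 ± 0.157 (0.000395) and Cox7a1 -0.65 ± 0.173 (0.00237). Adrb3 was -0.75 ± 0.215 (0.00447), Cox8b -0.42 ± 0.134 (0.00918), Elovl3 -0.75 ± 0.27 (0.0205) and Ucp1 -0.53 ± 0.226 (0.047). Dio2 was 1.09 ± 0.282 (0.00184), and Otop1 (-0.26) and Ppargc1a (0.16) did not pass. Cpt1b, Cidea, Cox7a1, Adrb3, Cox8b and Dio2 were called in each of 19 fits that left out 1 library, Elovl3 in 17 and Ucp1 in 7. The count changed with the covariate. With Adipoq alone 8 members were lower, and with Plin1 alone 4 (Cidea, Cox7a1, Adrb3 and Cpt1b), while Dio2 was higher with either. That made 9 of 10 members against 6984 of 13510 genes with Adipoq, and 5 of 10 against 7460 genes with Plin1.

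The same covariate gave 4 members lower in the Scl-Ab-treated model against WT, namely Cidea (-0.78 ± 0.158 SE, limma adjusted p = 2e-04), Cpt1b (-0.46 ± 0.128, adjusted p = 0.00408), Cox8b (-0.39 ± 0.135, adjusted p = 0.0174) and Cox7a1 (-0.49 ± 0.175, adjusted p = 0.0216), against 48.1% of all genes. Dio2 then stood at 0.67 and did not pass (adjusted p = 0.0547). Adipoq alone as covariate gave 8 lower, and Plin1 alone gave Cidea lower and Dio2 higher. That made 8 of 10 members against 5882 of 13510 genes with Adipoq, and 2 of 10 against 6467 genes with Plin1. Scl-Ab against vehicle gave 1 call against 12% of all genes, Adrb3 at 0.62 ± 0.209 (limma adjusted p = 0.0497), which was called in 7 of 19 fits that left out 1 library and with neither Adipoq nor Plin1 as covariate. Ppargc1a stood at -0.73 ± 0.248 there (adjusted p = 0.0533), and with a slope for each group it, not Adrb3, was called (-0.555, adjusted p = 0.0164).

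**Figure D5:**
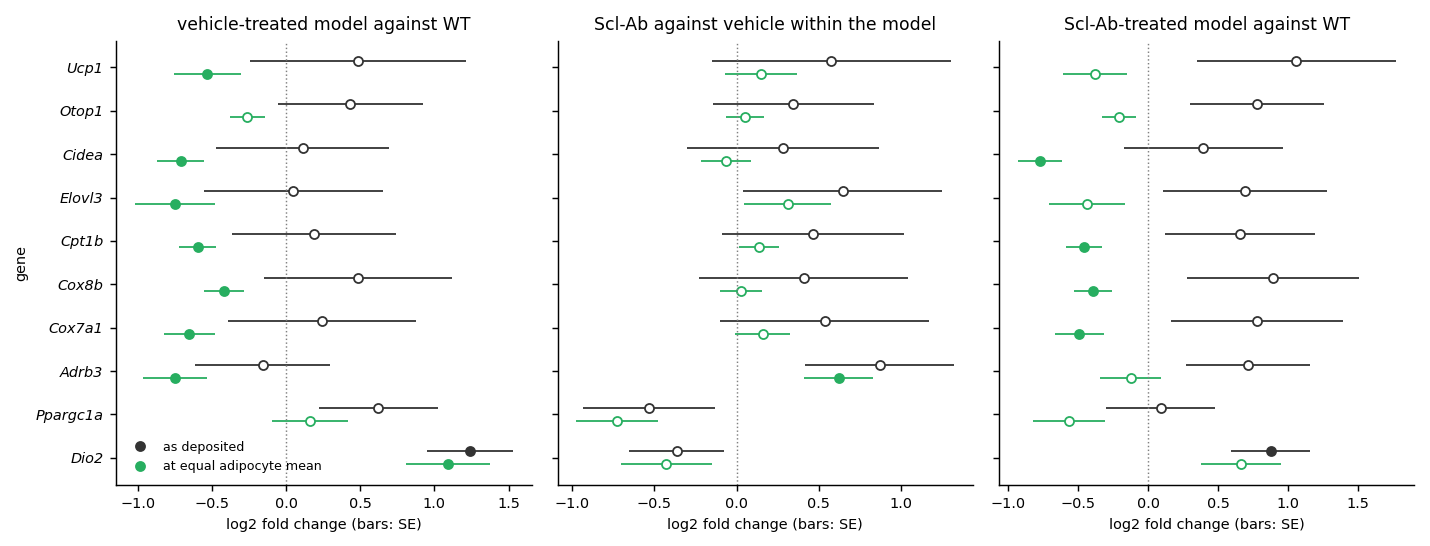
log2 fold change of each gene with its standard error in the 3 comparisons, as deposited (black) and with the general adipocyte mean as covariate (green); filled points have a limma adjusted p under 0.05. As deposited only Dio2 is filled, in both comparisons with WT; at equal adipocyte mean 7 genes are lower and Dio2 higher in the vehicle-treated model.

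Other genes of the same pathways were counted by list. In the adrenergic and lipolysis list of 14 genes, 4 were higher and 3 lower in the vehicle-treated model against WT, where 53.7% of all genes were called, among them Adcy5, an adenylyl cyclase (0.535-fold, limma adjusted p = 5.86e-06), and none was called under Scl-Ab against vehicle. In the fatty acid uptake list of 9 genes, 4 were higher and 1 lower in the vehicle-treated model, against the same 53.7%, led by Fabp5, a fatty acid carrier that macrophages also express (6.04-fold, adjusted p = 9.61e-11), and none under Scl-Ab. Lpl, the lipoprotein lipase and also a gene of the general adipocyte mean, was 2.51-fold higher in that comparison with WT (limma adjusted p = 0.00876). Of 18 beta-oxidation genes and 22 respiratory chain genes, none was called in any of the 3 comparisons by limma; at an unadjusted p under 0.05 there was 1, among the beta-oxidation genes in the Scl-Ab-treated model against WT. Their median log2 differences in the vehicle-treated model against WT were 0.215 and 0.101.

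Of 19 tested regulators of thermogenesis, 3 were higher and 5 lower in the vehicle-treated model against WT, where 53.7% of all genes were called. The thyroid hormone receptors, through which the hormone made by Dio2 acts, were among the lower ones: Thra at 0.669-fold (limma adjusted p = 9.57e-06) and Thrb at 0.555-fold (adjusted p = 7.89e-06). Over the 29 libraries with group means removed, r with Ucp1 was -0.363 for Thra, -0.306 for Thrb and -0.503 for Adcy5. Contractile smooth muscle genes had a median of -0.597 there. The part of smooth muscle in the levels of Thra, Thrb and Adcy5 was not tested. Thra was lower again under Scl-Ab against vehicle, at 0.769-fold (adjusted p = 0.0176), and was the only regulator called there. Among the 15 tested paralogs 3 were higher and 2 lower in the vehicle-treated model against WT, against the same 53.7%. Ucp2, an uncoupling protein relative found in many immune cells, was 4.05-fold higher (adjusted p = 3.02e-10), at 28.7 ± 7.46 FPKQ in the vehicle-treated model against 6.26 ± 1.69 in WT (SD). The 8 macrophage markers were higher in the same comparison, with a summed level of 736 to 2482 FPKQ in the vehicle-treated model and 64.5 to 220 in WT. Correlations of Ucp2 and Fabp5 with these markers were not computed, and the part of macrophages in their levels was not tested. None of the paralogs was called under Scl-Ab against vehicle.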

How the data were processed

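RNA was sequenced from 29 aortic arches with a stranded mRNA kit, per the labels' protocols. The deposited values, named FPKQ in the file headers, were read as FPKM-type values scaled to a common upper quantile. The 85th percentile of each library is 6.99 to 7.30. The submitters' processing notes name GRCm38 and DESeq2 1.10.1 without a role; no aligner, counter or annotation is given in the labels or headers. Low values lie on steps, by which a value of 1 in a 2 kb gene stands for 31.8 to 43.6 fragments.

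Genes at 1 or more in at least 9 libraries (13510) were fitted on log2(value + 1) with limma 3.58.1 (R 4.3.3, trend and robust), all 29 libraries in 1 model with Benjamini-Hochberg adjustment and a threshold of 0.05. Fold changes are on that scale, which understates changes of low genes. Correlations and isoform shares used permutation tests (SciPy 1.17.1), and the fit was tested on simulated data. Besides the members, the text names by rule the 2 genes of each list with the smallest p in the vehicle-treated model against WT and in Scl-Ab against vehicle, the tested paralogs, the 10 genes most like Ucp1 and the 3 most like any other member. Adipoq and Plin1 are named as covariates, outside that rule, and a gene that the rule would name is not reported here. Members and lists were chosen with earlier results of these data known. The labels do not tie each library to an animal, so p-values measure the spread between libraries.

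Alternatives were another pseudocount, no filter, 2 scalings, quality weights, 2 groups alone, covariates, code ranges and leaving out libraries. Those with Adipoq, Plin1 or a slope per group, those without vehicle-treated libraries 1 and 9, and those on pairs of codes were chosen after seeing the data.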

Additional observations from a re-analysis of the deposited data

Results flagged for a closer look

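Ucp1 in WT library 20, at 6.60 FPKQ, lay apart from the other 9 WT libraries, of which the nearest was 38.0. Cox8b in the same library, at 8.86 FPKQ, lay apart too, with the nearest WT library at 51.8. On the log2(value + 1) scale the gap was 0.467 and 0.486 of the group's range, above Dixon's critical value of 0.466. These were 2 of 39 groups tested, and chance flags about 1 in 20. Library 20 had the lowest WT value for 9 of the 10 genes. Without it, as without any other single library, 1, 0 and 1 members were called in the vehicle-treated model against WT, Scl-Ab against vehicle and the Scl-Ab-treated model against WT.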

How the results depend on the processing

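The counts of 1, 0 and 1 members called (vehicle-treated model against WT, Scl-Ab against vehicle, Scl-Ab-treated model against WT) held under every alternative run other than those named next. With the general adipocyte mean as covariate they were 8, 1 and 4, and the same with a slope for each group. With the cardiac mean, Scl-Ab against vehicle gave 1 (Ppargc1a, -1.22) and the Scl-Ab-treated model against WT 0. With WT libraries 20 to 24 alone the Scl-Ab-treated model against WT gave 0. With Plin1 as covariate the counts were 5, 0 and 2, and with Adipoq 9, 0 and 8. Leaving out 1 library under the adipocyte covariate gave 6 to 9, 0 to 2 and 3 to 6. The cause was not tested.

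Log2 differences that changed sign against the fit of all libraries without covariates, where none of them was called, follow for the settings named. In the vehicle-treated model against WT: Elovl3 -0.074 with a pseudocount of 0.1, and Ppargc1a -0.016 with Adipoq. With quality weights Cidea was -0.15, Cox7a1 -0.17, Elovl3 -0.17 and Cpt1b -0.18. With the adipocyte covariate Ucp1 was -0.53, Cidea -0.71, Cox8b -0.42, Cox7a1 -0.65, Elovl3 -0.75, Otop1 -0.26 and Cpt1b -0.60. Adrb3 was 0.004 without the 4 libraries whose code has 1 as second digit and 0.23 with WT 20 to 24. With WT 25 to 29 Ucp1 was -0.17, Cidea -0.30, Cox8b -0.16, Cox7a1 -0.42, Elovl3 -0.19 and Cpt1b -0.34. Without vehicle-treated libraries 1 and 9 Ucp1 was -0.24, Cidea -0.49, Cox8b -0.16, Cox7a1 -0.43, Elovl3 -0.54, Ppargc1a -0.077, Otop1 -0.10 and Cpt1b -0.42. Leaving out 1 library gave Cidea -0.16 to 0.39, Cox7a1 -0.11 to 0.54, Elovl3 -0.22 to 0.29 and Cpt1b -0.077 to 0.44.

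For Scl-Ab against vehicle, Cidea was -0.065 with the adipocyte covariate, -0.12 with Adipoq, -0.107 with Plin1 and -0.079 with a slope for each group. Cox8b was -0.047 with Adipoq and -0.027 with Plin1, and Ppargc1a 0.17 without libraries 1 and 9. With the cardiac covariate Ucp1 was -0.46, Cidea -0.49, Cox8b -0.48, Cox7a1 -0.49, Elovl3 -0.006, Otop1 -0.34 and Cpt1b -0.34. For the Scl-Ab-treated model against WT with the adipocyte covariate Ucp1 was -0.38, Cidea -0.78, Cox8b -0.39, Cox7a1 -0.49, Elovl3 -0.44, Ppargc1a -0.56, Adrb3 -0.13, Otop1 -0.21 and Cpt1b -0.46. With the cardiac covariate Cidea was -0.36, Cox7a1 -0.23, Ppargc1a -0.58 and Cpt1b -0.14, and with WT 25 to 29 Cidea was -0.02. Under Adipoq, Plin1 and a slope for each group, the members that turned with the adipocyte mean also turned in both comparisons with WT.

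Scaling to equal totals shifted the median of all genes by up to 0.223 (log2) and turned no member. The replicate numbers in the titles are not shared between groups, but the title codes of 8 pairs of model libraries share their last 2 digits. With these as a replicate block, 0 members and 7 genes were called under Scl-Ab against vehicle (limma), and 0 and 180 in the same 16 libraries without the block. Deviations of same-coded libraries correlated at -0.54 to 0.618, over 0.1 in 2 of 8 pairs. Code 30, at 0.618, was the 1 pair whose own code matched best. The labels do not say what the shared digits stand for. So few correlations cannot settle whether such pairs share more than a number.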
